A study of Homo sapiens with 8 samples.

Results

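The 10 genes described here are the receptor tyrosine kinase FLT3 and its ligand FLT3LG, the TAM receptors TYRO3, AXL and MERTK and their ligand GAS6, and 4 further receptor kinases, KIT, CSF1R, PDGFRB and LTK. They were chosen by symbol from a table of 60676 genes, and all 10 were found. The table covers 8 libraries from mice carrying MOLM14, a human acute myeloid leukaemia cell line labelled as FLT3-ITD (an internal tandem duplication within FLT3) and MLLr (a rearranged MLL gene). All 8 groups share that line, so every control is also FLT3-ITD leukaemia grown in a mouse, and the counts do not separate the duplicated allele from the other. Mice had received the kinase inhibitor gilteritinib or its vehicle for 1 week, and a ketogenic or a standard diet for 3 weeks. Each of the 4 combinations of drug and diet had 1 bone marrow library, made from cells sorted for human CD45, and 1 library labelled as a liver piece with mouse and human cells. No group has a replicate, and the number of animals behind a library is not given. The p-values therefore measure only the spread that a fit leaves between these libraries, which may be technical. In a fit per label that spread is the departure from added drug and diet terms, moderated across genes. A real difference of the drug effect between the diets would count there as error, but a gene's own departure weighed little after moderation. In labelled liver the drug's standard error was 0.12 for both FLT3 and GAS6. Their log2 ratios of gilteritinib over vehicle on standard and ketogenic diet were 0.58 and -0.18 for FLT3, and 0.02 and 0.12 for GAS6.

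Library totals ranged from 13605936 to 33611830 counts. Of 8 hepatocyte markers, 4 (ALB, APOB, CYP3A4 and TTR) were at 0 in all 8 libraries, and the summed level of all 8 was 0.147 to 0.605 CPM (counts relative to the library total) in the libraries labelled liver against 0.327 to 0.578 CPM in bone marrow. The counted genes are human and hepatocytes of the host are mouse cells, so these values do not tell whether liver tissue was present. The same holds for the host's cells of every other kind whose markers are given below. Those libraries are called labelled liver below after their label, and their counted RNA is described as that of human genes only. The level of 10 markers of leukaemia cells, added up, was 3480 to 3751 CPM with vehicle and 5598 to 7168 CPM with gilteritinib in bone marrow, and 3673 to 4229 and 8192 to 8373 CPM in labelled liver. LYZ carried most of that difference: without it the sums overlapped, at 1817 to 1893 with vehicle and 1742 to 2642 with gilteritinib in bone marrow, and 1981 to 2242 and 1976 to 2378 in labelled liver. The tissue label also coincides with a code that the labels give as the batch, so tissue, sort and batch cannot be told apart. In bulk libraries, fewer cells of a kind and less RNA per cell cannot be told apart either.

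FLT3, CSF1R, KIT and PDGFRB are class III receptor tyrosine kinases: a growth factor binds a pair of receptors, which then phosphorylate each other and recruit adaptors and STAT proteins. The duplication in FLT3 makes this signalling independent of the ligand, and FLT3 is otherwise a receptor of early blood progenitors. The TAM receptors bind GAS6 and protein S, which bridge them to exposed phosphatidylserine, and are known for the clearance of dying cells and for restraining inflammatory signalling in myeloid cells. Gilteritinib inhibits the kinase activity of FLT3 and AXL and also acts on LTK, and AXL is known from other work as a receptor that can sustain signalling in cells exposed to FLT3 inhibitors.

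CSF1R and PDGFRB lie next to each other on the minus strand of chromosome 5 and are the 2 genes that passed the drug test under both labels, in opposite directions. In GENCODE 29 (GRCh38), CSF1R (ENSG00000182578) spans chr5:150053291-150113372 and PDGFRB (ENSG00000113721) spans chr5:150113837-150155872, with 464 bases between them. The 250 bases before annotated starts of these genes and of AXL are shown, from RefSeq on GRCh38.p14, 5′ to 3′ on the strand of the gene, because the results below turn on these 3 receptors. RefSeq matched 10 of 10 members. Capitals mark matches, on either strand, to 3 motifs searched by letters: GAGGAA (the core of PU.1 sites), GGGCGG (the GC box) and TGANTCA (the AP-1 motif).
CSF1R, chr5:150113366-150113615, the start nearer PDGFRB: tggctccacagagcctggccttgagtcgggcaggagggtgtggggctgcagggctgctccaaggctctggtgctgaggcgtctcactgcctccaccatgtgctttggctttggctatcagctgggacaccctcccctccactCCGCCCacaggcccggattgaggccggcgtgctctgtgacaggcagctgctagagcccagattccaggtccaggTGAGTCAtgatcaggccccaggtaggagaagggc
CSF1R, chr5:150086555-150086804, the downstream start: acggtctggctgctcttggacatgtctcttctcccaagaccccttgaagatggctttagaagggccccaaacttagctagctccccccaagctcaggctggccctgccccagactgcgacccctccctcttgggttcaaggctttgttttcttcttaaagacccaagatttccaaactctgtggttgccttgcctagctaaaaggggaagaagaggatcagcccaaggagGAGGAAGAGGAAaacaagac
PDGFRB, chr5:150155846-150156095: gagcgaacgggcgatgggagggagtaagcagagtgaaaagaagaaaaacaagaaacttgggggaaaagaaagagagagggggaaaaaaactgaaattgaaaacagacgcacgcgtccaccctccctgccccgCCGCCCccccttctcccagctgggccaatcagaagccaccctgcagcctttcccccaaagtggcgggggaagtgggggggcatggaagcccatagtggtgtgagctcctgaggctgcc
AXL, chr19:41218973-41219222, plus strand: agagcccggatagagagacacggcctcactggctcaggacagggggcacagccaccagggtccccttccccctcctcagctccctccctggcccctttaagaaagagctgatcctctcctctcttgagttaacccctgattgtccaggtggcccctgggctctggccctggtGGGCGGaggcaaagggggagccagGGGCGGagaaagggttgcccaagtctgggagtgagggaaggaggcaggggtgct

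The downstream CSF1R window held 2 copies of GAGGAA side by side, and the other 3 windows held none. Of 35116 promoter windows of the same 250 bases, 23.6% held GAGGAA at least once and 3.49% held it 2 or more times. The window nearer PDGFRB held 1 match to TGANTCA, found in 6.57% of windows, and 1 GGGCGG. The PDGFRB window held 1 GGGCGG and the AXL window shown held 2, and 42.6% of all windows held this motif. AXL has another annotated start, with a window at chr19:41226505-41226754 that is not shown and held none of the 3 motifs. No marked matches overlapped. A match is a description of letters only, and the gene counts do not say which start a transcript used.

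FLT3 was the most abundant of the 10 genes and its ligand had no counts. Levels are compared between genes as scaled CPM per kilobase of merged exons, where scaled CPM are CPM after TMM scaling over the 8 libraries. FLT3 (ENSG00000122025, chr13:28003274-28100592, minus strand) averaged 112 ± 22.0 scaled CPM per kb (SD, n = 8 libraries of 8 groups). GAS6 (ENSG00000183087, chr13:113820549-113864067, minus strand) followed at 44.9 ± 2.68 per kb, and FLT3 exceeded it 1.80-fold to 3.36-fold within single libraries. Next came CSF1R at 6.85 ± 2.79, AXL at 4.03 ± 1.40 and LTK at 3.59 ± 0.699 per kb. PDGFRB (0.765 ± 0.347 per kb) and TYRO3 (0.420 ± 0.130 per kb) were lower still.

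The order is clear between FLT3 and GAS6, between GAS6 and CSF1R, between LTK and PDGFRB and between TYRO3 and KIT, whose ranges over the 8 libraries did not overlap. Ranges of CSF1R and AXL, of AXL and LTK, and of PDGFRB and TYRO3 overlapped. These ranges span all drug and diet groups, so their overlap does not show that neighbours are alike within a library. PDGFRB was at 1.09 per kb against 0.460 for TYRO3 in the vehicle marrow library on standard diet. In the gilteritinib labelled liver library on ketogenic diet they were at 0.369 and 0.396. In bone marrow the mean of AXL was above that of LTK (5.06 ± 1.04 against 4.14 ± 0.449 per kb, SD, n = 4 each). The marrow ranges overlapped (3.96 to 6.36 and 3.52 to 4.51), and with gilteritinib on ketogenic diet AXL was the lower, at 3.96 against 4.51. In labelled liver both means were close (2.99 ± 0.785 and 3.03 ± 0.329 per kb). TYRO3 has a long merged exon length of 10.945 kb, which lowers its level per kb.

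**Figure D1:**
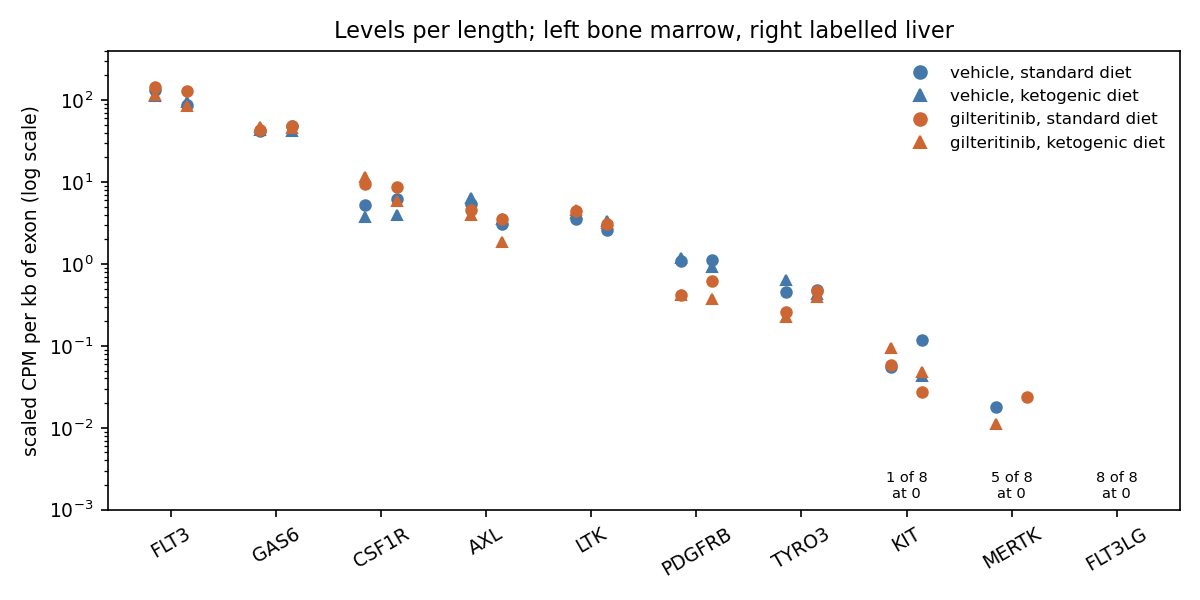
Levels of the 10 genes in scaled CPM per kb of exon (log axis), 1 point per library, bone marrow to the left and labelled liver to the right of each gene, coloured by drug with the diet as the point shape. FLT3 lies between 83.8 and 143 in all 8 libraries, above every value of the other genes, and the counts of libraries at 0 stand under KIT, MERTK and FLT3LG.

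The 3 genes at the bottom had too few counts for a fold change to be given. KIT, the receptor of stem cell factor, had 11, 0, 5 and 10 counts in bone marrow (vehicle on standard and on ketogenic diet, then gilteritinib on standard and on ketogenic diet) and 9, 4, 4 and 7 in labelled liver in the same order. MERTK, the TAM receptor of macrophages, had 3, 0, 0 and 1 counts in bone marrow and 0, 0, 3 and 0 in labelled liver. KIT reached the count minimum of the fits in bone marrow and over all 8 libraries and did not pass for the drug (adjusted p = 0.341 and 0.957). No direction is given for either gene at these counts. The sum of 5 mast cell markers, cells that carry KIT, was 0.614 to 0.952 CPM with vehicle and 2.38 to 5.58 with gilteritinib in bone marrow, and 0.967 to 1.18 and 2.68 to 3.29 in labelled liver. Most of it was TPSB2: without that gene the sums were 0.179 to 0.246 and 0.450 to 0.674 in bone marrow, and 0.242 to 0.294 and 0.217 to 0.566 in labelled liver, where they overlapped. FLT3LG, the FLT3 ligand (ENSG00000090554, chr19:49474207-49486231, plus strand), had 0 counts in all 8 libraries, which allows up to 3 counts per library or 0.0893 to 0.220 CPM. Its 0 is uncertain, because 37.5% of its exon bases are shared with 2 genes on the same strand, ENSG00000269469 and ENSG00000273189, which also had 0 counts in all 8 libraries, and how such reads were counted is not given in the sources used here.

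Gilteritinib was first compared with vehicle in each label, with diet as a second term in the fit. In bone marrow CSF1R rose and AXL, TYRO3 and PDGFRB fell, while FLT3, GAS6 and LTK did not pass the test. That is 4 of the 8 genes tested with an adjusted p under 0.05, in a comparison where 20.3% of all 14029 genes tested passed it, 10.5% higher and 9.82% lower. In labelled liver CSF1R rose and PDGFRB fell, 2 of 7 genes tested, where 2.26% of 14092 genes passed, 1.41% higher and 0.844% lower. KIT is the gene tested in bone marrow only, and MERTK and FLT3LG had too few counts for any test. The median difference of the tested genes was 0.07 on the log2 scale in bone marrow (all genes -0.0064) and 0.07 in labelled liver (all genes -0.00067).

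**Figure D2:**
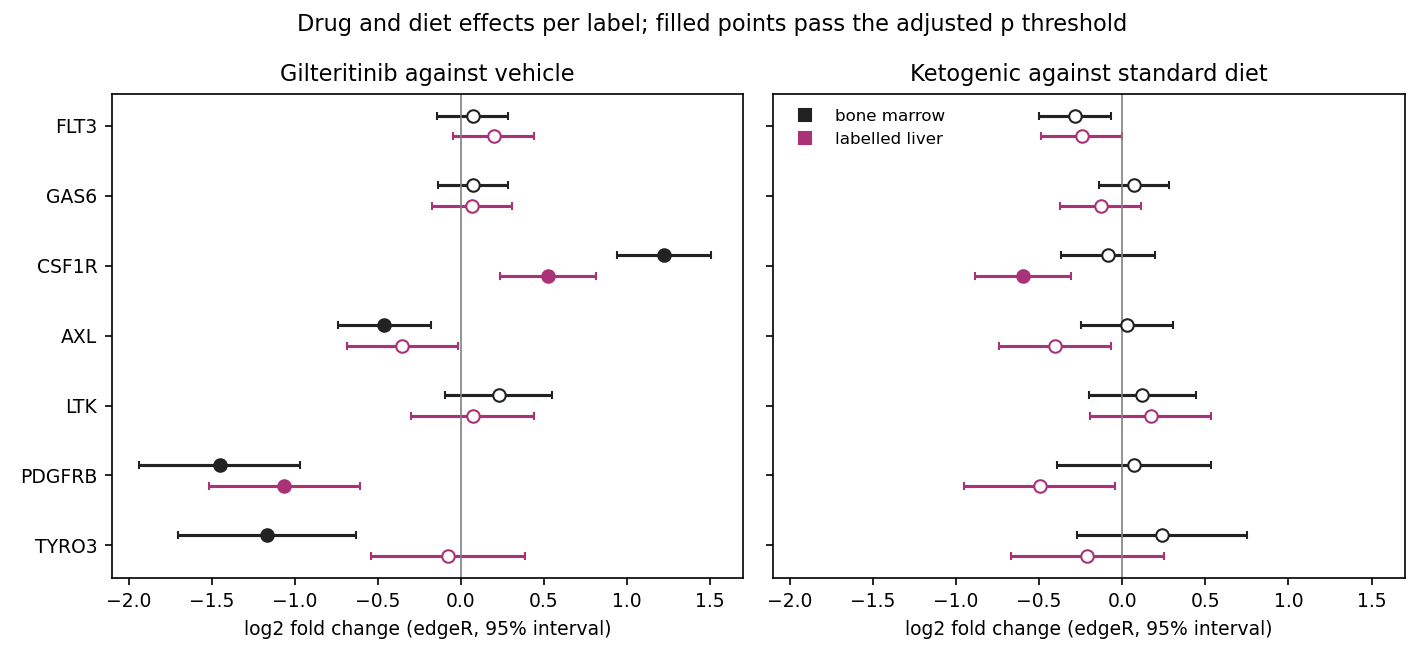
Log2 fold changes (x axis) with 95% intervals from edgeR for 7 of the 10 genes, gilteritinib against vehicle on the left and ketogenic against standard diet on the right, black for bone marrow and purple for labelled liver. Filled points have an adjusted p under 0.05: with the drug CSF1R lies right of 0 and PDGFRB left of it under both labels, and with the diet the single filled point is CSF1R in labelled liver.

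FLT3 RNA, the drug's main target, was close to its vehicle level in bone marrow. There FLT3 measured 547 and 469 scaled CPM with vehicle (standard and ketogenic diet) and 595 and 477 with gilteritinib. In labelled liver the same order gave 358 and 396 with vehicle and 536 and 349 with gilteritinib. The groups overlapped under both labels, and the gilteritinib library with standard diet was the highest in each. The fitted log2 difference in bone marrow was 0.07 (SE 0.11, 95% interval -0.14 to 0.29, adjusted p = 0.697), and it was -0.078 when library totals replaced TMM scaling. In labelled liver it was 0.20 (SE 0.12, interval -0.045 to 0.44, adjusted p = 0.631), with single-library log2 ratios of 0.58 on standard and -0.18 on ketogenic diet. Over all 8 libraries the drug term was 0.14 (SE 0.10, adjusted p = 0.468).

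Of 26 adaptors and effectors of FLT3, 25 were tested under each label. With gilteritinib 1 rose and 5 fell in bone marrow, which is 24.0% of those tested against 20.3% of all genes, and none passed in labelled liver. The median log2 difference of the list was -0.029 in bone marrow and -0.094 in labelled liver. STAT5A, a transcription factor that the duplicated receptor activates, rose by 0.52 on the log2 scale (SE 0.12, adjusted p = 0.00115), from 35.4 and 36.3 scaled CPM with vehicle to 51.4 and 51.7 with gilteritinib. GRB10, an adaptor that binds activated receptor kinases, fell by 0.77 (SE 0.16, adjusted p = 0.000314), from 16.3 and 21.7 to 9.80 and 12.5. The kinase gene MAPK3 fell by 0.41 (SE 0.14, adjusted p = 0.0263) and SOS1, an exchange factor that acts downstream of receptor kinases, by 0.47 (SE 0.16, adjusted p = 0.0326). GRB10 was also the list's single call over all 8 libraries, at -0.59 (SE 0.12, adjusted p = 0.0103).

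AXL (ENSG00000167601, chr19:41219203-41261766, plus strand) fell in bone marrow. It measured 27.7 and 32.8 scaled CPM with vehicle (standard and ketogenic diet) against 23.4 and 20.4 with gilteritinib, and in labelled liver 16.0 and 18.0 against 18.2 and 9.56. Both treated marrow libraries lay below both vehicle libraries, whereas in labelled liver the treated libraries were the highest and the lowest of the 4. The fit gave -0.46 in bone marrow (SE 0.14, adjusted p = 0.0135) and -0.35 in labelled liver (SE 0.17, unadjusted p = 0.0392, adjusted p = 0.419). The marrow call ended in DESeq2 (-0.46, adjusted p = 0.166), with no filter on low counts (adjusted p = 0.108), without the diet term (adjusted p = 0.0577) and with separate terms per label (adjusted p = 0.121). In this last fit the marrow difference was -0.24 when either marrow library of the ketogenic diet was left out.

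AXL differed most with the drug on the ketogenic diet. Its log2 ratios of gilteritinib over vehicle were -0.24 in bone marrow and 0.19 in labelled liver on standard diet, and -0.68 and -0.91 on ketogenic diet. Both ketogenic ratios were lower than both standard ratios. The term for drug by diet over all 8 libraries was -0.77 (SE 0.24, unadjusted p = 0.00741, adjusted p = 0.923), so the difference between diets did not pass. In that comparison 0 of 14749 genes passed in edgeR or in DESeq2, which is 0% of genes, and 706 had an unadjusted p under 0.05. FLT3 was the other member with an unadjusted p under 0.05 there, at -0.43 (SE 0.18, unadjusted p = 0.0311, adjusted p = 0.923).

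TYRO3 (ENSG00000092445, chr15:41557675-41583586, plus strand) fell with gilteritinib in bone marrow and did not pass the test in labelled liver. Bone marrow held 5.04 and 6.98 scaled CPM with vehicle and 2.88 and 2.45 with gilteritinib, from 44 to 181 counts per library. Labelled liver held 5.24 and 4.73 with vehicle and 5.14 and 4.33 with gilteritinib. The marrow groups did not overlap and the labelled liver groups did. Log2 differences were -1.17 (SE 0.27, adjusted p = 0.000937) and -0.078 (SE 0.24, 95% interval -0.54 to 0.39, adjusted p = 0.975). The marrow call ended in DESeq2 (-1.16, adjusted p = 0.0601). With separate terms per label it held over all 8 libraries (-1.16, adjusted p = 0.00282) and ended without either ketogenic marrow library (-0.80).

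Whether the drug differences themselves differed between the labels was tested with separate terms per label. For TYRO3 that difference was 1.09 (SE 0.34, unadjusted p = 0.00464, adjusted p = 0.107) and for CSF1R -0.70 (SE 0.21, unadjusted p = 0.0038, adjusted p = 0.0966). None of the 8 members tested passed, in a comparison where 2.49% of genes did. With 1 library left out, the difference ran from 0.72 to 1.43 for TYRO3 and from -1.09 to -0.35 for CSF1R. Both were largest in size without the vehicle or the gilteritinib marrow library on standard diet, and passed only then. PDGFRB was at 0.39 (SE 0.32, adjusted p = 0.615).

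GAS6, the TAM ligand, varied little across the libraries. It measured 253, 257, 256 and 282 scaled CPM in bone marrow (vehicle standard, vehicle ketogenic, gilteritinib standard, gilteritinib ketogenic) and 287, 255, 291 and 276 in labelled liver. All 8 libraries lay within 253 to 291 scaled CPM. The drug difference was 0.073 in bone marrow (SE 0.10, 95% interval -0.14 to 0.28, adjusted p = 0.677), or -0.075 with library totals, and 0.068 in labelled liver (SE 0.12, interval -0.17 to 0.31, adjusted p = 0.946). An antisense gene, GAS6-AS1, shares 7.01% of the GAS6 exon bases and had 3 to 13 counts, and the strand setting is not given in the sources used here. AXL's ratio to its ligand stayed low throughout, with GAS6 6.73-fold to 24.7-fold above AXL per kb.

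The ligand list held 14 genes: ligands of the class III and TAM receptors, FLT3LG and GAS6 among them, and the LTK ligands ALKAL1 and ALKAL2. Of the list, 6 were tested. In bone marrow 2 fell and none rose (33.3% of those tested, against 20.3% of all genes), and in labelled liver 1 fell (16.7% against 2.26%). PROS1, which encodes protein S, a ligand of TYRO3 and MERTK, fell by 0.93 on the log2 scale in bone marrow (SE 0.17, adjusted p = 6.28e-05). It measured 16.0 and 15.6 scaled CPM with vehicle and 8.50 and 8.13 with gilteritinib there, and 7.91 to 10.4 in labelled liver. PDGFA, a platelet-derived growth factor chain, fell by 0.75 in bone marrow (SE 0.15, adjusted p = 0.000255) and by 0.77 in labelled liver (SE 0.16, adjusted p = 0.000287). Its vehicle libraries lay at 20.9 to 28.6 scaled CPM and its gilteritinib libraries at 11.8 to 15.3, with no overlap. The list's median log2 difference was -0.22 in bone marrow and 0.071 in labelled liver, so the 2 medians differ in sign.

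CSF1R, the receptor for macrophage colony-stimulating factor, rose with gilteritinib under both labels. Bone marrow held 27.0 and 19.5 scaled CPM with vehicle (standard and ketogenic diet) and 49.2 and 59.8 with gilteritinib. Labelled liver held 32.0 and 20.2 with vehicle and 44.2 and 30.4 with gilteritinib. Both treated marrow libraries were above both vehicle libraries, and in labelled liver the treated ketogenic library lay just below the vehicle library on standard diet. The log2 difference was 1.22 in bone marrow (SE 0.14, adjusted p = 1.41e-08), a 2.33-fold rise, and 0.52 in labelled liver (SE 0.15, adjusted p = 0.0236), a 1.44-fold rise. Gilteritinib was higher in 4 of 4 single-library pairs, with log2 ratios of 0.47 to 1.62. The labelled liver call ended when all 8 libraries were fitted with separate terms per label (0.52, adjusted p = 0.117). Leaving any 1 of its 4 libraries out of that fit gave 0.47 to 0.59.

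The sum of macrophage markers was higher with the drug, mainly through CD163 and ADGRE1. The sum of 10 markers, C1QB and TIMD4 among them at 0 in all 8 libraries, was 12.5 to 12.7 CPM with vehicle and 30.1 to 32.5 with gilteritinib in bone marrow. In labelled liver it was 9.43 to 12.6 with vehicle and 16.3 to 22.5 with gilteritinib. Without CD163 the marrow sums were 9.34 to 10.6 and 14.7 to 19.5, and the labelled liver sums 7.01 to 8.67 and 11.4 to 13.7. Most of the rest was ADGRE1, at 8.78 and 9.88 CPM with vehicle and 14.5 and 17.9 with gilteritinib in bone marrow. MARCO went from 0.536 to 0.257 CPM with the drug on standard diet there, and from 0.491 to 1.54 on ketogenic diet. C1QA, C1QC, CD5L, CLEC4F and VSIG4 had at most 4 counts in any library. These human markers do not tell which mouse cells were present, and the part of such cells or of these genes in the CSF1R difference was not tested.

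PDGFRB, the platelet-derived growth factor receptor of mesenchymal cells, fell with gilteritinib under both labels. It measured 7.76 and 8.39 scaled CPM with vehicle and 2.94 and 2.97 with gilteritinib in bone marrow, from 45 to 279 counts per library. In labelled liver it measured 7.94 and 6.58 with vehicle and 4.43 and 2.64 with gilteritinib. The treated and vehicle libraries did not overlap under either label. Log2 differences were -1.45 in bone marrow (SE 0.24, adjusted p = 8.78e-06) and -1.06 in labelled liver (SE 0.23, adjusted p = 0.000717). The 4 single-library pairs were all lower, from -0.84 to -1.50. In labelled liver the call held when all 8 libraries were fitted with separate terms per label (-1.06, adjusted p = 0.0153). It ended when any 1 labelled liver library was left out of that fit (-0.84 to -1.32).

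The sum of 10 stromal markers was lower with the drug in bone marrow through 1 gene, CSPG4. The sum, with COL3A1, DCN and LRAT at 0 in all 8 libraries, was 74.1 to 80.0 CPM with vehicle and 42.9 to 51.7 with gilteritinib in bone marrow, and 53.1 to 65.6 and 35.0 to 55.9 in labelled liver. Without that gene the sums were 5.71 to 8.003 with vehicle and 8.61 to 9.26 with gilteritinib in bone marrow, thus higher with the drug, and 5.50 to 8.16 and 5.06 to 6.15 in labelled liver. Of 7 endothelial markers, 6 were at 0 in all 8 libraries. The sum of 7 lymphoid markers, CD2 and MS4A1 at 0 and most of it NCAM1, was 46.9 to 49.1 CPM with vehicle and 27.7 to 30.8 with gilteritinib in bone marrow, and 41.7 to 44.7 and 29.4 to 35.8 in labelled liver. Without NCAM1 it was higher with the drug, at 1.66 to 1.93 against 2.07 to 3.09 CPM in bone marrow and 1.54 to 1.57 against 2.08 to 2.28 in labelled liver. These human markers do not tell which mouse cells were present, and the part of such cells in the PDGFRB difference was not tested.

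Over all 8 libraries, in a fit with terms for label, drug and diet, CSF1R rose with gilteritinib by 0.90 (SE 0.19, adjusted p = 0.0320) and PDGFRB fell by 1.22 (SE 0.18, adjusted p = 0.00161). These were 2 of 8 members tested, where 4.92% of 14749 genes passed, 3% higher and 1.92% lower. AXL was at -0.40 (SE 0.16, adjusted p = 0.175) and TYRO3 at -0.56 (SE 0.22, adjusted p = 0.150). PDGFRB passed in each of the other settings tried, with values of -1.44 to -1.11. CSF1R did not pass with no filter on low counts (adjusted p = 0.0555), nor without the vehicle marrow library on standard diet (0.82, adjusted p = 0.0745), the vehicle marrow library on ketogenic diet (0.77, adjusted p = 0.105) or the vehicle labelled liver library on ketogenic diet (0.90, adjusted p = 0.0543). Without the gilteritinib labelled liver library on standard diet, AXL passed as well, at -0.60.

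**Figure D3:**
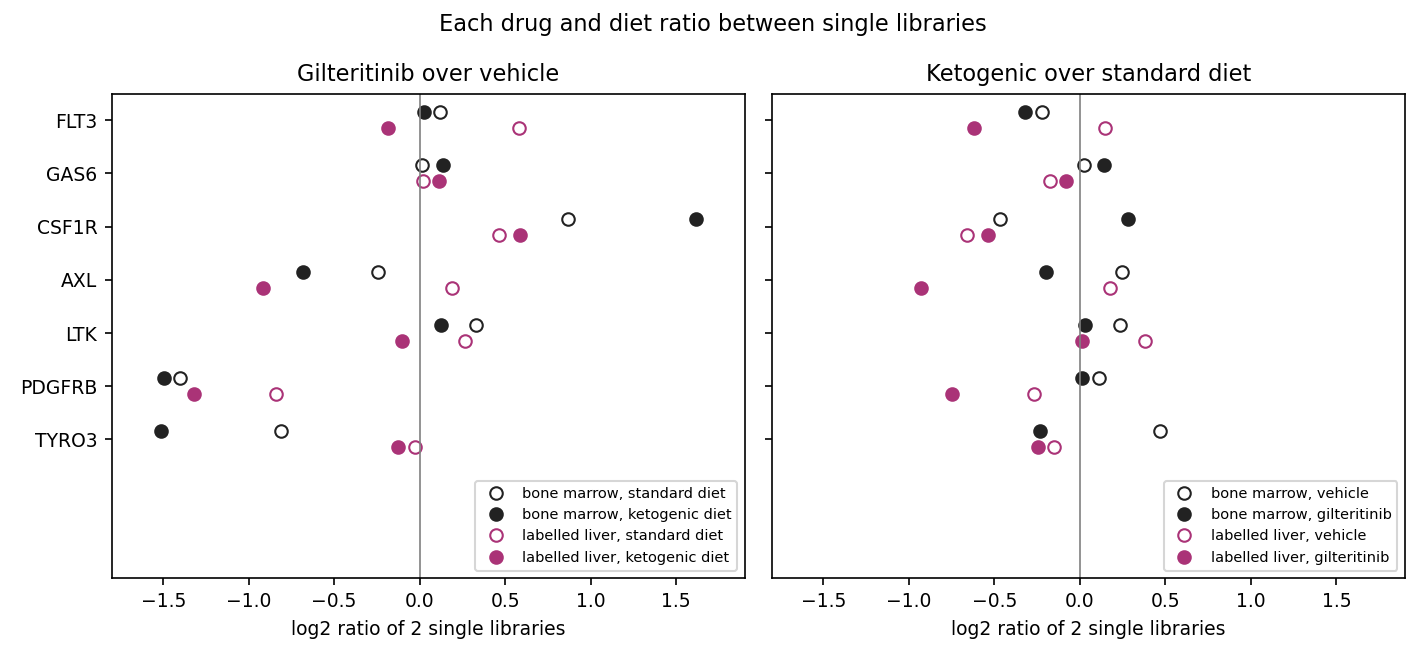
Log2 ratios between single libraries (x axis) for the 7 genes, gilteritinib over vehicle within each label and diet on the left, ketogenic over standard diet within each label and drug on the right. All 4 drug ratios of CSF1R are above 0 and all 4 of PDGFRB are below 0, whereas the drug ratios of AXL run from -0.91 to 0.19.

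LTK (ENSG00000062524, chr15:41503638-41513887, minus strand) encodes leukocyte tyrosine kinase, a relative of ALK, and lies 43.8 kb from TYRO3. It measured 12.3 and 14.4 scaled CPM with vehicle and 15.4 and 15.7 with gilteritinib in bone marrow, and 8.96 and 11.7 against 10.8 and 10.9 in labelled liver. Treated marrow libraries were slightly above the vehicle ones, and in labelled liver the groups overlapped. Neither difference passed: 0.23 in bone marrow (SE 0.16, 95% interval -0.095 to 0.55, adjusted p = 0.341) and 0.07 in labelled liver (SE 0.19, interval -0.30 to 0.44, adjusted p = 0.970). LTK and TYRO3, 43.8 kb apart, thus had different drug values in bone marrow, as did CSF1R and PDGFRB.

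Among 50 other receptor tyrosine kinases, 18 were tested per label, and 11.1% of these passed in bone marrow against 20.3% of all genes. In bone marrow RET rose by 0.51 (SE 0.11, adjusted p = 0.000442), from 85.2 and 92.9 scaled CPM to 120.3 and 133. None passed in labelled liver, and the list medians were -0.012 and -0.12. Of 21 SRC family and other cytoplasmic tyrosine kinases, 19 were tested: FGR and FES rose in bone marrow and FGR rose in labelled liver, with list medians of -0.021 and -0.035. The marrow calls are 10.5% of those tested against 20.3% of all genes, and the labelled liver call is 5.26% against 2.26%. FGR, a SRC family kinase of myeloid cells, rose by 0.84 (SE 0.15, adjusted p = 6.23e-05) and by 1.20 (SE 0.15, adjusted p = 1.42e-12). FES rose by 0.57 (SE 0.11, adjusted p = 7.93e-05). Of 12 genes of receptor shedding and trafficking, HSP90AA1, a chaperone of kinases, fell by 0.30 in bone marrow (SE 0.11, adjusted p = 0.0407), and HSP90B1, the chaperone of the endoplasmic reticulum, rose by 0.47 in labelled liver (SE 0.12, adjusted p = 0.0123), 8.33% of the list under each label.

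**Figure D4:**
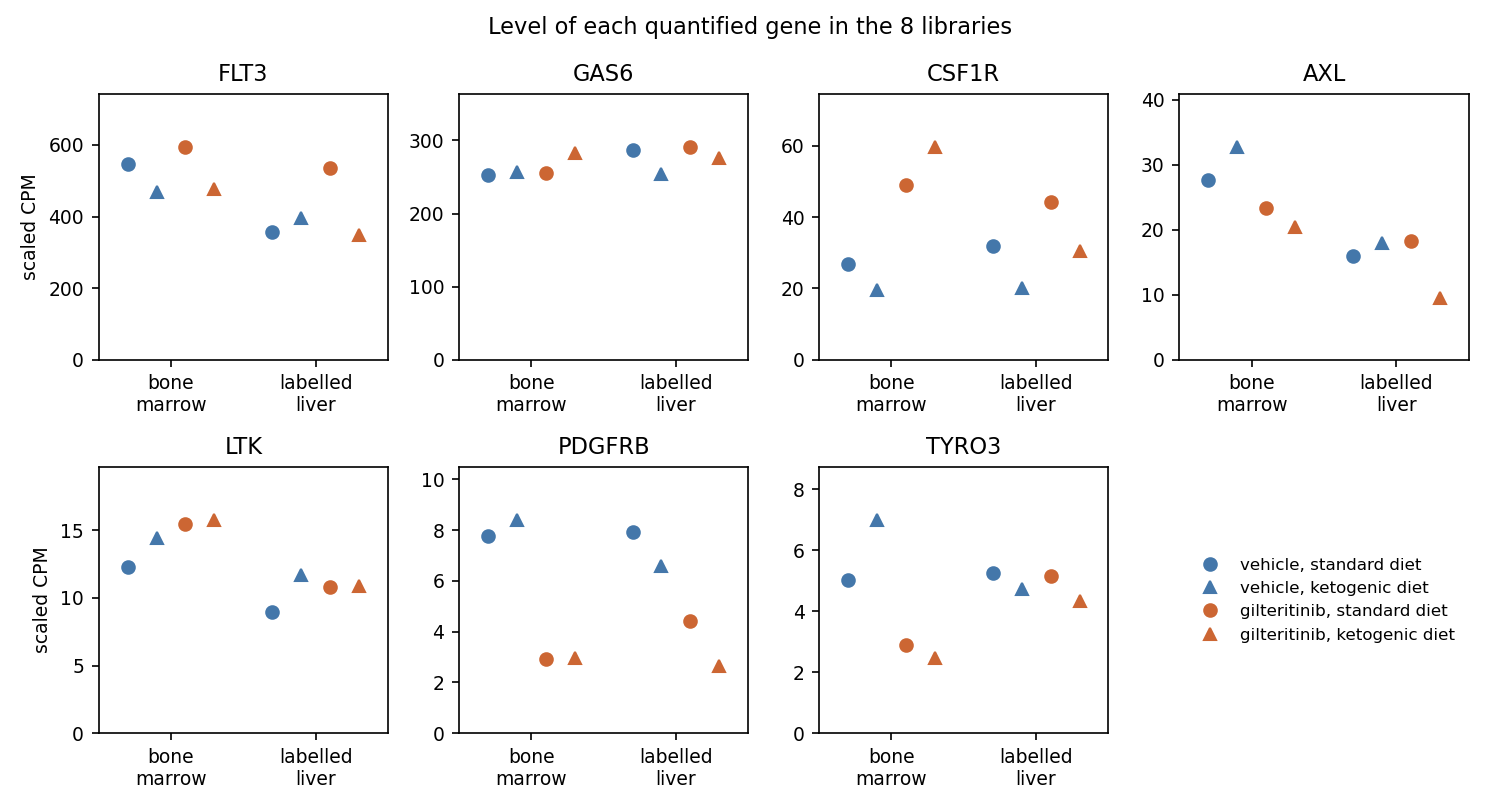
Scaled CPM of the 7 genes with enough counts, 1 point for each of the 8 libraries, by label, drug and diet. FLT3 runs from 349 to 595 and GAS6 from 253 to 291, CSF1R is highest in the 2 treated marrow libraries (49.2 and 59.8), and PDGFRB is at or below 4.43 in every treated library.

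The ketogenic diet changed fewer of these genes. In bone marrow none of the 8 members tested passed in edgeR, where 0.492% of genes did, 1 member and 1307 genes had an unadjusted p under 0.05, and DESeq2 called 29 genes. In labelled liver CSF1R was the single call among 7 members tested, where 1.01% of genes passed, 0.653% of all as lower. Over all 8 libraries none of 8 passed, where 0.136% of genes did. Leaving out single libraries gave 1 more call, of CSF1R without the gilteritinib marrow library on ketogenic diet (-0.59, adjusted p = 0.0431).

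CSF1R fell with the diet in labelled liver by 0.60 on the log2 scale (SE 0.15, adjusted p = 0.0098). From the levels above, the ketogenic libraries there lay at 20.2 with vehicle and 30.4 with gilteritinib, against 32.0 and 44.2 on standard diet, lower in both pairs. In bone marrow the pairs pointed in opposite directions, -0.47 with vehicle and 0.28 with gilteritinib, and the fit gave -0.084 (SE 0.14, 95% interval -0.37 to 0.20, adjusted p = 0.897). The labelled liver call ended in DESeq2 (adjusted p = 0.356) and with separate terms per label. Leaving any 1 labelled liver library out of the latter fit gave -0.66 to -0.54. The difference between the labels was -0.52 (SE 0.21, unadjusted p = 0.0228, adjusted p = 0.967).

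FLT3 was lower on the ketogenic diet in 3 of 4 pairs, and no fit passed. The log2 ratios were -0.22 with vehicle and -0.32 with gilteritinib in bone marrow, and 0.15 and -0.62 in labelled liver. The fitted values were -0.28 in bone marrow (SE 0.11, unadjusted p = 0.0109, adjusted p = 0.338), -0.24 in labelled liver (SE 0.12, unadjusted p = 0.0496, adjusted p = 0.480) and -0.26 over all 8 libraries (SE 0.10, unadjusted p = 0.0255, adjusted p = 0.498). AXL was at 0.029 in bone marrow and -0.41 in labelled liver (adjusted p = 0.341), and PDGFRB at 0.07 and -0.50 (adjusted p = 0.413). TYRO3 was at 0.24 in bone marrow (SE 0.25) and -0.21 in labelled liver (SE 0.23), LTK at 0.12 and 0.17, and GAS6 at 0.068 and -0.13, none of them past the test.

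In mice given both the drug and the diet, against those given neither, values exist as 1 library against 1 and carry no test. In bone marrow the log2 ratios of this pair were 1.15 for CSF1R, -1.39 for PDGFRB, -1.04 for TYRO3, -0.44 for AXL and -0.20 for FLT3. In labelled liver they were -0.07 for CSF1R, -1.59 for PDGFRB, -0.28 for TYRO3, -0.74 for AXL and -0.04 for FLT3. CSF1R in labelled liver was thus close between these 2 libraries, and PDGFRB was lower under both labels. LTK stood at 0.36 and 0.28, and GAS6 at 0.16 and -0.06.

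Labelled liver against bone marrow, over all 8 libraries, gave no call among the 8 members in edgeR, where 0% of 14749 genes passed and 2026 had an unadjusted p under 0.05. AXL was lower in labelled liver in all 4 pairs, with log2 ratios of -0.80, -0.86, -0.36 and -1.09 (vehicle standard, vehicle ketogenic, gilteritinib standard, gilteritinib ketogenic), and its fitted difference was -0.74 (SE 0.16, unadjusted p = 0.000667, adjusted p = 0.170). LTK was lower in all 4 pairs too, at -0.45 (SE 0.12, unadjusted p = 0.00169, adjusted p = 0.188), and so was FLT3, at -0.35 (SE 0.10, unadjusted p = 0.00416, adjusted p = 0.203). DESeq2 called 143 genes in this comparison, AXL among them at -0.75 (adjusted p = 0.00346), and edgeR called AXL without the gilteritinib labelled liver library on standard diet (-0.97, adjusted p = 0.0205). Tissue, sort and batch all change together here.

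Genes with the profile most like a member's were found among 6806 genes by the root mean square difference of centred log2 CPM over the 8 libraries. For FLT3 they were HIPK3 (0.080), CYFIP1 (0.089) and TTC17 (0.093), against a median of 0.30 over all candidates. For CSF1R they were FAM20C (0.18), S100A6 (0.19) and ITGAM (0.21), against a median of 0.57. For AXL the nearest genes, SNX30, PLEKHM2 and FMNL3, were each at 0.25, against a median of 0.51. The distances for AXL were thus larger than those for FLT3 and CSF1R. These distances rest on 8 libraries that differ in label, depth, drug and diet together, and carry no test.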

How the data were processed

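The submitters deposited raw gene counts as whole numbers, with no normalization, for mRNA libraries sequenced as paired ends, per the labels' protocols. Alignment used STAR 2.7.3a and GRCh38, per the submitters' processing notes. How genes were counted (program, annotation, strand) and how mouse reads were handled is not given in the sources used here, which leaves overlapping genes uncertain.

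Tests covered genes that reached 10 counts in 2 or more libraries of a fit, and were run with edgeR 4.0.16 (R 4.3.3; TMM scaling, robust quasi-likelihood test, two-sided, Benjamini-Hochberg over all genes tested, threshold 0.05). Fits per label had drug and diet as terms, leaving 1 residual degree of freedom. Fits of all 8 libraries left 4 (label, drug and diet), 2 (separate terms per label) or 3 (drug by diet). Each standard error is the size of the fold change over the root of F. Alternatives were limma-voom (limma 3.58.1), DESeq2 1.42.0, further scalings and filters, and left-out libraries. For drug or diet within a label, libraries were left out of the fit with separate terms per label, not of the fit per label. Lengths and positions came from GENCODE 29, which holds 96.4% of the identifiers. Marker sums are CPM by library totals. Intervals of fold changes come from the fit, and floors cover counting error only.

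The members, the lists of pathway and marker genes and the tests were chosen with earlier results of these data known. Named genes are the 10 members, up to 5 called genes of each list per comparison by smallest p, and the 3 genes of nearest profile for FLT3, AXL and CSF1R. A few list genes that fall under this rule are left out here.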

Additional observations from a re-analysis of the deposited data

Results flagged for a closer look

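The diet values of GAS6 and PDGFRB pointed in opposite directions under the 2 labels: in each, both bone marrow pairs were higher on the ketogenic diet and both labelled liver pairs were lower. For GAS6 the log2 ratios were 0.02 and 0.14 in bone marrow and -0.17 and -0.08 in labelled liver. The difference between labels was -0.21 (SE 0.14, unadjusted p = 0.156, adjusted p = 0.981). For PDGFRB the ratios were 0.11 and 0.01 in bone marrow and -0.27 and -0.75 in labelled liver, and the difference between labels was -0.58 (SE 0.31, unadjusted p = 0.0781, adjusted p = 0.981). Neither passed the test of the difference, and 0 of 14749 genes did in edgeR (712 with an unadjusted p under 0.05; 3 genes called in DESeq2).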

How the results depend on the processing

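Of 680 values of single members under other settings, 612 kept their direction and side of the threshold, 37 lost and 8 gained a call, and 23 changed sign. The gilteritinib calls of CSF1R and PDGFRB in bone marrow passed under every alternative (0.87 to 1.62 and -1.60 to -1.32). The number of members called for the drug in bone marrow, 4, was 2 in DESeq2 and 2 to 5 with 1 library left out. The fifth was KIT, at 10 against 0 counts, which without the same library was also the third call for drug by label. For the drug in labelled liver, 2 became 0 in DESeq2, with no filter on low counts, without the diet term or with any library left out, and 1 with library totals or all 8 libraries with separate terms. The single diet call in labelled liver became 0 in DESeq2, with no filter, without the drug term, with separate terms and with any library left out. For the drug over all 8 libraries, 2 became 1 with no filter and 1 to 3 with a library left out. Counts of 0 became 0 to 1 for the diet over all 8 libraries and for the label (1 in DESeq2), and 0 to 3 for drug by label.

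Library totals gave -0.078 for FLT3 and -0.075 for GAS6 with the drug in bone marrow and -0.016 for AXL with the diet there, where they moved the median of all genes with the drug to -0.15 and the calls from 1473 higher and 1377 lower to 874 and 2774. Over all 8 libraries the drug calls went from 442 higher and 283 lower to 287 and 627, the marrow diet calls from 48 and 21 to 34 and 24, and drug by label from 239 and 128 to 332 and 71. Without the drug term, the marrow diet value was 0.055 for CSF1R and -0.014 for PDGFRB. With a library left out, drug values in labelled liver ran from -0.18 to 0.58 for FLT3, -0.91 to 0.19 for AXL and -0.10 to 0.27 for LTK. Marrow diet values then ran from -0.21 to 0.25 for AXL, -0.25 to 0.47 for TYRO3, -0.47 to 0.26 for CSF1R and -0.0042 to 0.11 for PDGFRB, and labelled liver diet values from -0.62 to 0.14 for FLT3 and -0.93 to 0.17 for AXL. Such values rest on single libraries, and the lone library is assumed to vary like the others. The cause was not tested.

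Over all genes, DESeq2, no filter and no second term called 1170, 1221 and 1671 genes against 2850 for the drug in bone marrow, and 50, 35 and 29 against 318 in labelled liver (155 with separate terms). For the diet in labelled liver they called 12, 0 and 0 against 143 (36 with separate terms). For the diet in bone marrow, against 69, DESeq2 called 29, RLE size factors 42, no filter 1, a stricter filter 120, thinned counts 113, no drug term 0 and separate terms 24. For the diet over all 8 libraries DESeq2 called 47 and no filter 33 against 20, for the label DESeq2 143, no filter 10 and library totals 4 against 0, and for drug by label no filter 207 against 367. With 1 library left out, the drug called 853 to 1714 genes in bone marrow, 37 to 55 in labelled liver and 234 to 2036 over all 8. The diet then called 14 to 128, 1 to 23 and 4 to 115, the label 0 to 38, drug by label 7 to 452 and diet by label 0 to 10. No paired analysis was possible because the labels give no replicate numbers and each group has 1 library. Low counts limit KIT, MERTK and FLT3LG, and depth in labelled liver was higher with gilteritinib.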
